A study of Mus musculus
Mus spretus with 18 samples.

Results

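Embryonic stem cells (ESC) were compared with adult organs by RNA sequencing of F1 hybrid mice. The comparison used all ESC libraries of the series, that is 2 libraries from 2 independent clones, and 12 libraries of cerebral cortex, heart, kidney, lung, spleen and liver, so that 14 of the 18 libraries of the series were included. The hybrids were offspring of a female C57BL/6J mouse, a laboratory strain, and a male SPRET/EiJ mouse, an inbred strain of the species Mus spretus, and both the ESC and the organs carried 1 genome of each strain. The organs were taken from 2 female mice aged 8 weeks, and the liver data of the same animals came from earlier work. The liver libraries carry slightly different strain names in their labels. The ESC were derived from the same cross and grown in N2B27 medium with leukaemia inhibitory factor (LIF) and the 2 kinase inhibitors known as 2i. A cultured line grown from 1 clone differs from an organ in cell composition, culture and developmental stage together, and these cannot be told apart here. The 12 organ libraries come from 2 animals and were treated as separate samples. With 1 library per clone, the spread between the ESC libraries is the spread between clones.

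Mouse ESC are derived from the inner cell mass of the blastocyst and can form every cell type of the body. Their undifferentiated state rests on a network of transcription factors around Pou5f1 (OCT4), Sox2 and Nanog. LIF signals through STAT3, and 2i blocks the MEK/ERK kinases and GSK3, so that ERK output is low and Wnt signalling through β-catenin is raised. The cells divide fast, with a short first gap phase. Exon choice in ESC is known to depend on regulators such as the muscleblind proteins MBNL1 and MBNL2, which are low in pluripotent cells and promote splicing patterns of differentiated tissue.

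Gene expression is given in TPM (transcripts per kilobase, scaled to a fixed total per library), a level corrected for gene length that can be compared between genes. Inclusion of skipped exons is given as percent spliced in (PSI), the share of transcripts that hold the exon, written here as a fraction between 0 and 1. The deposited junction reads came to 73349137 in ESC clone 1 and 85755969 in ESC clone 2, against 46558287 to 129496306 in the organ libraries. TPM in the ESC clones had a Spearman correlation of 0.965 over genes, lower than the 0.989 to 0.997 between the replicates of each organ. Reads of ESC, lung and spleen were sequenced shorter than those of cortex, heart and kidney, which the authors trimmed to the common length before alignment.

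The label of the ESC libraries was checked against marker genes. All 25 genes of a list of pluripotency factors were tested and summed to 12554 TPM in clone 1 and 13300 TPM in clone 2, against 45.2 to 652 TPM in the organs. Markers of the organs were near 0, with sums of 4 genes of 0.505 and 0.154 TPM for kidney, 0.702 and 1.53 TPM for lung, 1.15 and 0.645 TPM for liver, 2.19 and 2.71 TPM for cortex and 10.2 and 12.5 TPM for heart, for clones 1 and 2. The 4 spleen markers summed to 4.79 TPM in clone 1 and to 26.8 TPM in clone 2, and nearly all of the latter was the T cell receptor subunit Cd3e (3.73 and 25.4 TPM). The pan-leukocyte gene Ptprc was at 0.0220 and 0.0106 TPM in the clones. Fibroblasts are often used as a feeder layer for ESC, and 10 fibroblast markers summed to 124 TPM in clone 1 and 91.6 TPM in clone 2, below every organ library (171 to 5173 TPM). The fibroblast markers Dcn (0.546 and 0.208 TPM), Lum (0.145 and 0.0522 TPM) and Postn (0.783 and 0.203 TPM) were the only 3 of the 10 under 1 TPM in both clones. In the comparison below, 6 of the 10 were lower in ESC than in the organs (16.6% of all genes). Fbln1 and Twist1 were higher (28.3% of all genes). Of the 7 fibroblast markers expressed in a clone, 4 were at least 2-fold higher in clone 1, beside 1523 of all 16539 tested genes expressed in a clone.

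The first comparison asked which genes set ESC apart in expression. Of 21925 genes with at least 1 TPM in at least 2 libraries, 6203 were higher in ESC (28.3% of genes tested) and 3637 were lower (16.6%), called at an adjusted p under 0.05 and a difference of at least 1 in log2(TPM + 1) from the mean of the 6 organs (limma, Benjamini-Hochberg adjustment). When both clones also lay outside the range of all 12 organ libraries, a gene was counted as set apart, which applied to 4168 higher genes (19% of genes tested) and 1339 lower genes (6.11%). ESC were thus outside the organ range for 25.1% of the genes tested. A gene under 1 TPM in every organ library was tested only because of its ESC level, so the filter fixed its direction. How many genes this covers was not counted. After each library was rescaled by the median ratio to the others, 2838 higher and 2345 lower genes were set apart. The balance of directions depended on scaling: 63.0% of the called genes were higher in ESC with the deposited TPM, but 45.6% after the same rescaling, which gave 4062 higher (18.5%) and 4854 lower genes (22.1%). The rescaling moved the median difference of all genes from 0.14 to -0.23 on the log2 scale, by -0.37. Without ESC clone 1, 2036 lower genes were set apart. With 1 clone, only that clone has to lie outside the organ range, which is easier to meet by definition. In these bulk samples, fewer cells of a type and less RNA per cell cannot be told apart.

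The autosomal genes that stood farthest above every organ were pluripotency genes and a cluster of microRNA genes. Dppa5a, an RNA-binding protein of pluripotent cells (chr9:78367052-78368199, GRCm38), reached 5701 and 5552 TPM in clones 1 and 2, while the organs had a lowest value of 0, a median of 0.126 and a highest value of 1.56 TPM. The difference was 12.09 ± 0.31 (SE) in log2(TPM + 1), adjusted p = 2.64e-09. Pou5f1 (chr17:35506032-35510777) had 1146 and 1261 TPM, with an organ median of 0 and a highest organ value of 0.457 TPM in lung (log2 difference 10.12 ± 0.17, adjusted p = 4.53e-10). The ESC clones lay close together and far from the organs for both genes. The homeobox factor Nanog stood at 1026 and 1018 TPM against at most 0.330 TPM in the organs, and the zinc finger factor Zfp42 (REX1) at 456 and 390 TPM against at most 0.124 TPM. Triml2 (279 and 264 TPM), which lies near Zfp42 on chromosome 8, Gm6083 (309 and 303 TPM) and Tex19.1 (224 and 221 TPM), which restrains transposons in germ cells and placenta, were at 0.137 TPM or less in each organ library.

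Of the 12 genes with the widest gap, 4 were microRNA genes of 1 cluster on chromosome 7, the miR-290 to miR-295 cluster, whose products are the most abundant microRNAs of mouse ESC. Mir295 was listed at 430 and 343 TPM, Mir294 at 267 and 251 TPM, Mir293 at 233 and 243 TPM and Mir291b at 213 and 212 TPM, and all were listed at 0 in the 12 organ libraries. Libraries of messenger RNA read the primary transcript of such genes, not the mature microRNA. These microRNA genes are also very short, and division by length can give them a high TPM from few reads. Rpl10l, a retrocopy of the ribosomal protein gene Rpl10, was likewise at 261 and 239 TPM in the clones and listed at 0 in every organ library. Dppa5a, Pou5f1, Nanog and Rpl10l have near-identical copies elsewhere in the genome, so that their reads may be split between copies. The plot of genes set apart shows these levels library by library.

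**Figure D1:**
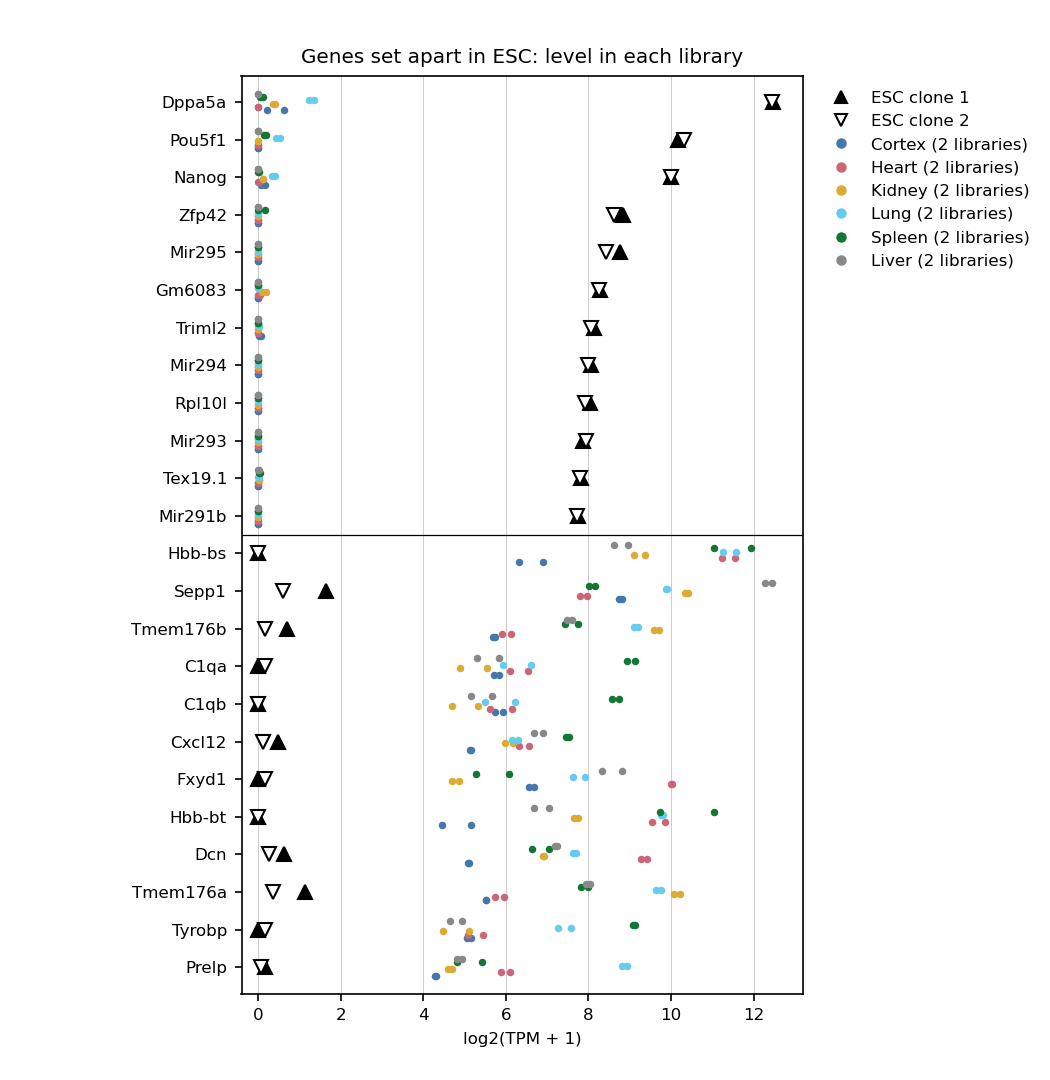
Level of the 12 autosomal genes set apart higher (top) and the 12 set apart lower (bottom) in ESC with the widest gap to the nearest organ library, as log2(TPM + 1) on the horizontal axis. Triangles are the ESC clones and coloured points the 2 libraries of each organ; the genes were chosen for this gap, and no ESC point falls among the organ points, with Dppa5a at 5701 and 5552 TPM and Hbb-bs at 0 in both clones.

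Pluripotency factors were higher as a group. All 25 listed genes were called higher (against 28.3% of all genes) and 24 were set apart, with a median log2 difference of 6.97 where that of all genes was 0.14. Members under 1 TPM in every organ library, such as Pou5f1 and Nanog, passed the filter only through ESC. Sox2 had 409 and 414 TPM in ESC, and its highest organ value, 56.2 TPM, was in cortex, where neural progenitors and glia use it. Esrrb, an orphan nuclear receptor of the naive state, had 312 and 350 TPM, with up to 23.9 TPM in kidney. Klf4 had 373 and 333 TPM, with up to 148 TPM in lung, and the Krüppel-like factor Klf2 was the 1 member called but not set apart, since its 147 and 276 TPM lay within the organ range of 5.36 to 346 TPM. Klf2 was not higher when lung and spleen were the only organs compared (log2 difference -0.51). Nr5a2, a nuclear receptor that liver also uses, was nearest to its organ range, at 30.4 and 38.8 TPM in ESC and up to 28.3 TPM in liver. Genes of the early 2-cell stage, which a small share of ESC in culture expresses, were also higher: the 7 members tested were all called and set apart, with a median difference of 3.04. The listed genes summed to at most 0.164 TPM in any organ library, so those tested passed the filter only through ESC. Their direction was therefore fixed in advance, and their count is no support. The largest of the 7 was Tcstv3, at 45.8 TPM in clone 1, 8.71 TPM in clone 2 and at most 0.164 TPM in the organs. Zscan4d stood at 18.4 and 2.65 TPM and Zscan4c at 9.16 and 1.83 TPM, and both were listed at 0 in every organ library. The Zscan4, Tcstv and Usp17l genes are families of close copies, and the split of reads among their members is uncertain.

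Germline genes, which act in meiosis or in the silencing of transposons in germ cells, were higher in 13 of 14 cases (against 28.3% of all genes), and all 13 were set apart (median difference 5.00). Dazl, an RNA-binding protein of germ cells, had 487 and 227 TPM against at most 2.89 TPM in the organs (log2 difference 8.02 ± 0.24 (SE), adjusted p = 9.05e-09). Hormad1, a protein of meiotic chromosome axes, had 121 and 81.7 TPM, and the synaptonemal complex gene Sycp1 had 100 and 108 TPM, with organ values of at most 0.0430 and 0.498 TPM. Both passed the filter only through ESC, so the count of 13 holds members whose direction was fixed in advance. Stra8, which opens the way to meiosis, stood at 70.3 and 31.4 TPM. The member that was not called, Tdrkh, had 10.6 and 1.82 TPM within an organ range of 1.25 to 40.8 TPM.

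Genes of DNA replication and mitosis were higher in 23 of 24 cases (28.3% of all genes), with 20 set apart and a median difference of 4.65. The cyclin gene Ccnb1 had 102 and 166 TPM, with an organ range of 0.0168 to 19.1 TPM, and Cdc20, the activator of the anaphase-promoting complex, had 239 and 314 TPM, with an organ range of 0.411 to 61.9 TPM. Rrm2, a subunit of ribonucleotide reductase, had 210 and 482 TPM against at most 136 TPM in the organs. The highest organ value of all 24 genes came from spleen, and for the proliferation marker Mki67 (68.2 and 78.2 TPM), Pcna (138 and 313 TPM) and Rrm1 (97.6 and 140 TPM) at least 1 clone lay below spleen, at 103, 176 and 113 TPM. Of 12 cyclin-dependent kinase inhibitors, D cyclins and retinoblastoma family genes, 4 were higher and 1 was lower, counts near the shares of all genes (28.3% and 16.6%), so these genes are given as single genes. The higher ones included Cdkn1a, the p21 inhibitor, at 494 and 324 TPM against at most 75.2 TPM, Ccnd3 at 109 and 174 TPM against at most 66.2 TPM, and Cdkn2a at 24.8 and 36.7 TPM against at most 3.98 TPM. Rbl2, a pocket protein of resting cells, was lower, at 13.1 and 9.53 TPM against 16.3 to 46.5 TPM.

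DNA methylation genes were higher in 8 of 14 cases and lower in 1 (28.3% and 16.6% of all genes), with a median difference of 2.03. Uhrf1, which brings the maintenance methyltransferase to replicated DNA, had 271 and 539 TPM against at most 65.7 TPM, and Dnmt1 itself had 200 and 261 TPM against at most 75.3 TPM. The demethylating enzymes Tet1 (139 and 85.1 TPM, organs at most 6.23 TPM) and Tet2 (141 and 165 TPM, organs at most 30.4 TPM) were both set apart. Dnmt3b, a de novo methyltransferase, had 50.5 and 102 TPM, and Dnmt3l, its catalytically inactive partner, had 89.5 and 32.7 TPM. The methyl-CpG binding gene Mbd2 was lower, at 18.6 and 10.7 TPM against 22.5 to 97.9 TPM.

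Chromatin regulators changed in both directions, with 15 of 22 higher and 5 lower (28.3% and 16.6% of all genes, median difference 1.65), or 11 and 6 after rescaling. The polycomb genes Mtf2 (324 and 238 TPM), Jarid2 (218 and 189 TPM), Suz12 (264 and 292 TPM), Eed (178 and 193 TPM) and Ezh2 (69.1 and 75.3 TPM), which place or guide repressive histone H3 lysine 27 methylation, were all set apart higher. Trim28, a corepressor that silences retrotransposons, had 780 and 922 TPM against at most 164 TPM. Paralogous subunits of the BAF remodelling complex differed: the core subunit Smarcc1 was higher (125 TPM in both clones, organs at most 42.0 TPM) while Smarcc2 was lower (25.9 and 27.0 TPM, organs at least 47.7 TPM). For the ATPases, Smarca2 was lower, at 6.28 and 3.11 TPM against 21.6 to 105 TPM, and Smarca4 was higher at 138 and 125 TPM against at most 88.9 TPM, although Smarca4 was no longer called after rescaling (log2 difference 0.85). For the actin-related subunits, Actl6a was higher (136 and 177 TPM, organs at most 61.7 TPM), and Actl6b, the neuronal form, was at 0.0331 and 0.0279 TPM, below cortex at up to 119 TPM, with a log2 difference of 0.0122 when cortex was left out.

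The 3 lists of signalling genes held few called members in either direction, beside 28.3% higher and 16.6% lower among all genes, and their counts are not read as a result about signalling. Of 8 genes of the LIF pathway, 2 were higher and 1 lower. The STAT3 targets Socs3 (52.2 and 55.3 TPM) and Pim1 (177 and 231 TPM, organs at most 77.3 TPM) were called higher, and the receptor Lifr was called lower at 10.9 and 13.9 TPM, still within the organ range, a call that was lost without ESC clone 1. After rescaling, 2 genes of this list were higher and 4 lower. Among 10 ERK targets, 3 were higher and 3 lower. Dusp6, a phosphatase induced by ERK, was set apart lower, at 10.4 and 9.99 TPM against 16.6 to 120 TPM, and the immediate early gene Egr1 was lower at 0.297 and 4.33 TPM. The ETS factors Etv5 (316 and 295 TPM, organs at most 65.3 TPM) and Etv4 (16.3 and 12.9 TPM, organs at most 11.8 TPM) and the feedback inhibitor Spry2 (64.3 and 180 TPM) were set apart higher. Of 9 Wnt targets, 3 were higher and 2 lower, and Cdx1, a homeobox gene, had the largest difference, with 16.4 and 136 TPM against at most 0.0838 TPM.

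Splicing regulators were examined because exons were compared next. Of 51 genes of this list, 18 were higher and 6 lower with the deposited TPM (28.3% and 16.6% of all genes, median difference 0.59), and 9 higher and 7 lower after rescaling (median difference 0.00), so the direction of the list as a whole depended on scaling. Ptbp1, a repressor of neural and muscle exons, had 324 and 372 TPM and was set apart from the organs, the highest of which was spleen at 195 TPM. Mbnl1 was set apart lower, at 11.8 and 7.29 TPM against 27.8 to 153 TPM (log2 difference -2.41 ± 0.30 (SE), adjusted p = 9.39e-05). Mbnl2 was not called, with 97.4 and 14.3 TPM in the clones and a log2 difference of -0.53, and Mbnl3 had 3.09 and 1.28 TPM. Rbfox1, a regulator of neural and muscle exons, was at 0.186 and 0.339 TPM, Celf2 at 0.661 and 1.02 TPM and Rbm24, a regulator of muscle exons, at 1.33 and 0.769 TPM. The other muscle regulators Rbm38 (100 and 111 TPM) and Rbm20 (64.4 and 21.2 TPM) were higher in ESC than the organ mean but below heart, at up to 134 and 159 TPM. The plot of gene lists sets these groups beside each other.

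**Figure D2:**
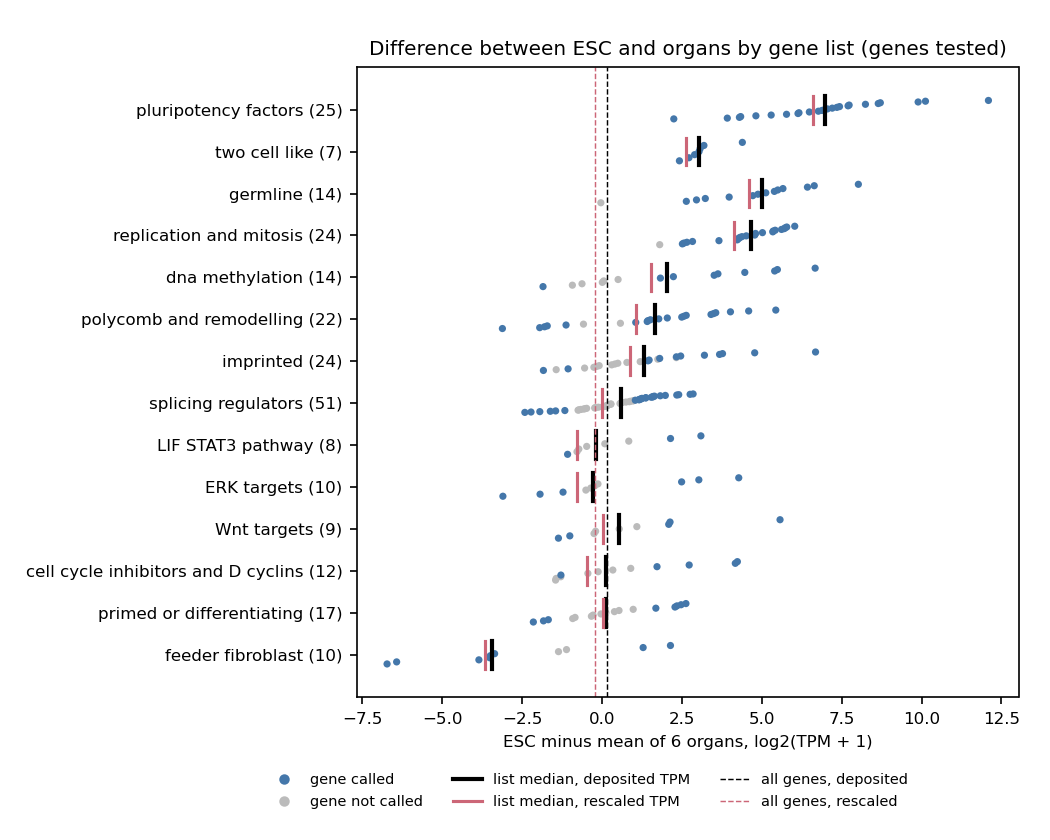
Difference between ESC and the mean of the 6 organs in log2(TPM + 1) for each tested gene of 14 lists, with called genes in blue, the list median as a black bar and the median after rescaling as a red bar; dashed lines mark the medians of all genes, 0.14 and -0.23. The medians of pluripotency factors (6.97), germline genes (5.00) and replication and mitosis genes (4.65) lie far to the right of both dashed lines, while that of splicing regulators moves from 0.59 to 0.00.

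The 12 genes that stood farthest below every organ differed in the organ where they were highest, which was spleen for 6 of them. The adult β-globin genes Hbb-bs and Hbb-bt were listed at 0 in both clones and at 78.8 to 3931 TPM and 21.1 to 2105 TPM in the organs. The complement genes C1qa (0 and 0.121 TPM) and C1qb (0 in both clones), expressed by macrophages and microglia, stood at no less than 28.4 and 25.0 TPM in the organs, and Tyrobp, a signalling adaptor of myeloid cells, was at 0 and 0.128 TPM against at least 21.3 TPM. These 5 genes were highest in spleen, and the ESC values lay below all organ values. Sepp1, the plasma selenium carrier, was at 2.13 and 0.533 TPM in ESC, with an organ minimum of 220, a median of 695 and a maximum of 5560 TPM in liver (log2 difference -8.43 ± 0.28 (SE), adjusted p = 1.50e-08). The matrix proteoglycans Dcn and Prelp (0.119 and 0.0499 TPM), the chemokine Cxcl12 (0.407 and 0.0905 TPM) and Fxyd1 (0 and 0.127 TPM), a regulator of the sodium pump, were also among the 12 lowest. The membrane proteins Tmem176a and Tmem176b, expressed in many immune and epithelial cells, stood at 1.21 and 0.290 TPM and at 0.639 and 0.123 TPM, against at least 44.7 and 50.9 TPM. Of 10 fibroblast markers, 6 were lower and 2 were higher, namely Fbln1, a matrix protein (70.0 and 71.7 TPM, organs at most 73.0 TPM), and Twist1 (5.34 and 2.80 TPM, organs at most 1.98 TPM), a call that was lost after rescaling and without clone 1.

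For each set apart gene, the organ nearest to ESC was the one holding the closest library. Spleen was nearest for 43.8% of the 4168 higher genes and cortex for 32.4%, whereas liver was nearest for 1.34%. Higher genes listed at 0 in every organ library, such as Mir295 and Rpl10l, have no nearest organ but were counted under cortex. The cortex share is therefore too high by an amount not counted here. Of the 1339 lower genes, liver was nearest for 39.4% and cortex for 27.0%. These shares used the deposited TPM and were not computed after rescaling. The median ratio of the liver libraries to the others was the lowest, at 0.406 and 0.388, beside 1.41 and 1.35 in the ESC clones. How far this scaling sets the shares was not tested. Over all 21925 genes, the Spearman correlation of TPM between ESC and an organ ran from 0.597 with cortex to 0.662 with heart, a description over genes that are not independent.

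Exon inclusion was compared next, on autosomes, for skipped exon events with at least 20 reads in both replicates of ESC and of at least 3 organs. This left 19934 events on 18215 exons of 7292 genes. A logistic model of inclusion against skipping reads called 343 events with higher inclusion in ESC (1.72% of events tested) and 626 with lower inclusion (3.14%), at an adjusted p under 0.05 and a difference of at least 0.1 in PSI from the mean of the organs, 4.86% in all. Both clones lay outside the range of all organ libraries for 146 higher (0.732%) and 281 lower events (1.41%), in 364 genes, or 2.14% in all. The smallest difference called was 0.100, and 693 events with an adjusted p under 0.05 fell short of it, the nearest at 0.0996. The counts depended on the model. The median dispersion was 8.51 in ESC and 3.34 in the organs. With 1 dispersion per event pooled over ESC and organs, the logistic model called 452 higher and 786 lower events. A different model, limma on log odds, called 37 higher and 33 lower events. It fitted 1 variance per event, with library weights of 0.433 for ESC and 1.15 for organs. With only clone 2 in the fit, 444 higher and 968 lower events were called and 263 and 696 were set apart, and with only clone 1, 436 and 784 were called and 265 and 510 were set apart. A single clone is then assumed to vary like the other libraries, and only that clone has to lie outside the organ range.

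By organ, the share of events that differed from ESC by at least 0.2 in PSI, among those alternatively spliced in either tissue (PSI between 0.1 and 0.9), was 33.2% of 4265 for cortex and 27.5% of 3826 for heart. It was 20.6% for liver, 18.3% for spleen, 17.8% for kidney and 17.1% for lung.

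The exon with the widest gap lay in Gm10499, a gene in the major histocompatibility region (48 nt, chr17:36142332-36142379, mm10, minus strand). Its PSI was 0.949 in clone 1 and 0.959 in clone 2, and 0.0107 to 0.135 in the organ libraries, with a median of 0.0265 (adjusted p = 5.42e-88). The transcripts of ESC mostly held an exon that those of the organs mostly skipped. A long exon of Clip1 (2268 nt, chr5:123613068-123615335), which encodes a protein of microtubule plus ends, was included at 0.578 and 0.863 in ESC and at no more than 0.00750 in any organ library. Inclusion was higher in clone 2 than in clone 1, and both were far above the organs.

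Exons of a splicing regulator, of fibronectin and of a histone chaperone were among those with higher inclusion. In the splicing regulator Mbnl2, a 54 nt exon (chr14:120395712-120395765) had a PSI of 0.826 and 0.944 against 0.0516 in heart to 0.435 in cortex (median 0.215, adjusted p = 7.01e-23), and a 95 nt exon (chr14:120404638-120404732) had 0.800 and 0.944 against 0.123 to 0.664. In Fn1, the gene of the matrix protein fibronectin, the 270 nt exon (chr1:71603660-71603929) and the 273 nt exon (chr1:71613763-71614035), which have the lengths of the extra domains A and B, had PSI values of 0.657 and 0.747 and of 0.536 and 0.653. The organs ranged from 0.00205 to 0.367 and from 0.00216 to 0.292, with liver lowest, and the lower clone rested on 12592 reads for the 270 nt exon. Fn1 itself was set apart higher in expression, at 861 and 800 TPM. The 975 nt exon of the histone chaperone gene Nasp (chr4:116610403-116611377) was included at 0.937 and 0.932 in ESC, and at 0.00743 in liver to 0.777 in heart.

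The other exons among the 12 with higher inclusion and the widest gap lay in genes of varied function. The guanine nucleotide exchange factor Ect2, which acts in cytokinesis, included a 93 nt exon at 0.610 and 0.625 against at most 0.250. Mapk8ip3, an adaptor of kinesin and JNK, included a 24 nt exon at 0.573 and 0.873 against at most 0.294, and the phosphatidylinositol transfer protein gene Pitpnb an 85 nt exon at 0.683 and 0.711 against at most 0.429. The deubiquitinase gene Usp48 (54 nt, 0.521 and 0.576), Kctd20 (179 nt, 0.941 and 0.961), D4Wsu53e (45 nt, 0.733 and 0.897) and the cAMP-responsive factor Crem (82 nt, 0.830 and 0.870) complete the 12. A PSI belongs to 1 event, and an exon can lie in several events. In another event, also set apart, the same Kctd20 exon had 0.256 and 0.280, with organs at most 0.238. Likewise, the same D4Wsu53e exon had 0.147 and 0.451 in another event, with organs at most 0.0322. The Crem exon rested on only 43 reads in the lower clone. The de novo methyltransferase gene Dnmt3b included a 60 nt exon at 0.837 and 0.915, against 0.0437 to 0.710 in the 3 organs with enough reads.

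Lower inclusion in ESC was led by Ncoa6, a coactivator of nuclear receptors, whose 2976 nt exon (chr2:155405475-155408450) had a PSI of 0.207 and 0.243 in ESC and 0.805 to 0.994 in the organs (median 0.944, adjusted p = 2.58e-65). Exons of muscle genes followed, with a 33 nt exon of the slow troponin Tnnt1 at 0.419 and 0.274 and a 79 nt exon of the sarcomeric actinin gene Actn2 at 0.450 and 0.259, against organ minima of 0.964 and 0.981. The lower clone had 20 and 29 reads for these exons, and 3 organs had enough reads. The clathrin light chain gene Clta skipped a 36 nt exon almost entirely (0.0205 and 0.0209), while cortex, heart and spleen included it at 0.543 to 0.810. The kinesin-2 motor gene Kif3a had exons on both sides of the comparison: a 72 nt exon (chr11:53588689-53588760) was lower at 0.0595 and 0.00984 against at least 0.536, and a 9 nt exon (chr11:53590717-53590725) was higher at 0.606 and 0.889 against at most 0.283.

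Further exons with lower inclusion likewise lay in genes of varied function. The histone H3 lysine 79 methyltransferase gene Dot1l included a 96 nt exon at 0.167 and 0.0565 against at least 0.578, Cnot10, a subunit of the main deadenylase complex, a 36 nt exon at 0.475 and 0.391 against at least 0.908, and the Wnt pathway factor Lef1 an 84 nt exon at 0.423 and 0.0683 against at least 0.806. The set also held exons of Col13a1, a transmembrane collagen (57 nt, 0.244 and 0.0871), the ciliary gene Rpgrip1 (343 nt, 0.333 and 0.212) and 5830428H23Rik (124 nt, 0.278 and 0.524). Reads were few for some of these: the lower clone had 37 for Lef1, 25 for Col13a1, 40 for Rpgrip1 and 23 for 5830428H23Rik. Only 3 organs had enough reads for Col13a1 and Rpgrip1. Picalm, an adaptor of clathrin-coated pits, had a 24 nt exon at 0.111 and 0.0537 in ESC and at 0.194 to 0.952 in organs, and the Hippo pathway factor Tead1 a 12 nt exon at 0.0724 and 0.00696 against 0.204 to 0.971. Mta1, a subunit of the NuRD repressor, included a 36 nt exon at 0.620 and 0.0969, both below the organ minimum of 0.668 and far from each other. The plot of exons set apart gives these values by library.

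**Figure D3:**
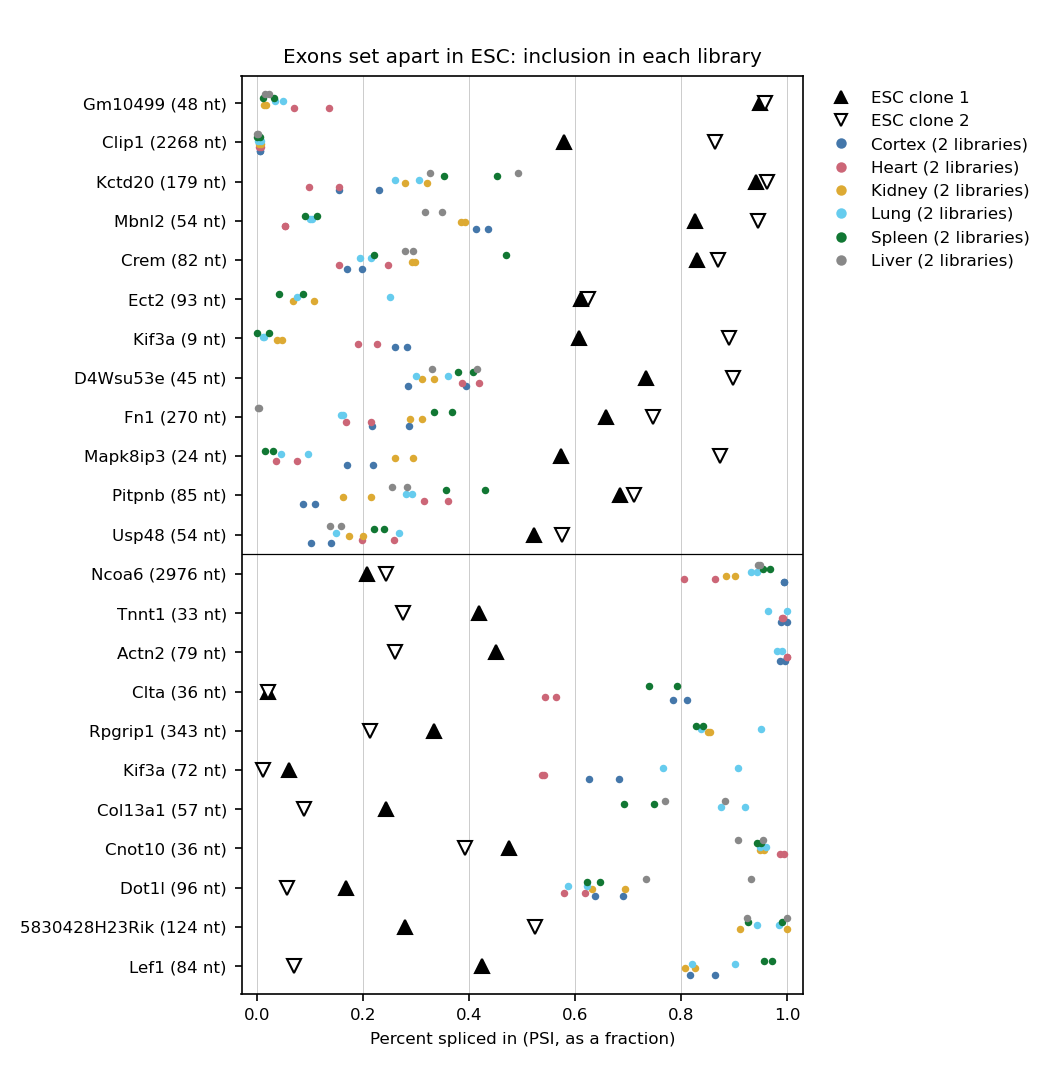
PSI (0 to 1, horizontal axis) of the 12 exons with higher (top) and 11 of the 12 with lower inclusion (bottom) in ESC that had the widest gap to the nearest organ library, with exon lengths in nucleotides; triangles are the ESC clones and coloured points the 2 libraries of each organ with at least 20 reads. The exons were chosen for this gap. The clones lie close together for Gm10499 (0.949 and 0.959) and far apart for Lef1 (0.423 and 0.0683, with 37 reads in clone 1).

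In genes of splicing regulators, 90 events in 29 genes were tested, and 5 were higher and 6 lower, beside 1.72% and 3.14% of all events. Of these, 7 in 6 genes were set apart (2.14% of all events), and the 54 nt exon of Mbnl2 was the only one of the 7 still called by limma on log odds. Besides those of Mbnl2, these were exons with lower inclusion in ESC than in every organ library. They lay in Rbfox2 (51 nt, 0.619 and 0.755, organs at least 0.761), Son (80 nt, 0.0852 and 0.125, organs at least 0.169), Hnrnpll (83 nt, 0.0193 and 0.0240, organs at least 0.0977), Srsf11 (117 nt, 0.0802 and 0.146, organs at least 0.176) and Srsf9 (90 nt, 0.00498 and 0.00640, organs at least 0.0127). The Srsf9 exon was included at up to 0.532 in cortex, and without cortex its difference was -0.045. Among genes with exons reported to switch in stem cells or development, 123 events in 31 genes were tested, and 19 were higher and 14 lower (1.72% and 3.14% of all events). The median size of the difference was 0.0217 for splicing regulators and 0.0529 for genes with switching exons, beside 0.0104 for all events. Further events set apart in these genes were a 69 nt exon of the kinesin receptor Ktn1 (0.816 and 0.825, organs at most 0.735) and an 85 nt exon of Numb, an inhibitor of Notch (0.399 and 0.438, organs at least 0.482). The Numb call (adjusted p = 0.0408) was lost without 1 library of cortex (replicate 2), kidney, spleen or liver (replicate 1 each), and the Rbfox2 call without lung replicate 2. The Numb call was also lost with only events read in all 6 organs (adjusted p = 0.0797) and with lung and spleen as the only organs (adjusted p = 0.0955). With limma on log odds, the adjusted p was 0.834 for Numb, 0.512 for Rbfox2 and 0.410 for Ktn1.

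Micro-exons, taken as exons of up to 30 nt, made up 2.25% of the exons tested and 4.41% of those with a PSI between 0.1 and 0.9 in a library. They were 9.95% of the exons with lower and 4.28% of those with higher inclusion in ESC. Of 433 micro-exon events, 62 were lower (14.3%) and 14 higher (3.23%), beside 3.14% and 1.72% of all events, and 22 lower (5.08%) and 3 higher ones (0.693%) were set apart. This balance depended on the organs compared. Without cortex, 40 of 385 were lower and 22 higher, beside 514 lower and 361 higher of 17648 events in all. With lung and spleen as the only organs, 32 of 332 were lower and 25 higher, beside 358 and 338 of 14526. The balance of all events thus moved in the same direction as that of micro-exons. Exons whose length is a multiple of 3, which keep the reading frame, were 65.7% of the exons with higher and 59.5% of those with lower inclusion, beside 46.7% of exons with a PSI between 0.1 and 0.9 in a library and 41.5% of all tested. Among exons set apart, they were 61.4% of those with higher and 50.6% of those with lower inclusion. Of the genes with an exon of higher inclusion, 54.0% were also called in expression, and of those with an exon of lower inclusion 42.5%, beside 43.7% of all genes with a tested exon.

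Since reads can be assigned to the C57BL/6J or SPRET/EiJ allele, each set apart exon could be read on both alleles within the same nuclei. At least 20 allelic reads per allele and clone were present for 297 events. For 156 of them, both alleles in both clones were outside the range of the organ libraries (all reads), in the direction that defined the event. In 53 events only the C57BL/6J allele, and in 55 only the SPRET/EiJ allele, was outside in both clones. Only reads over a sequence difference can be assigned, and they need not represent all reads. Assigned reads of both alleles together gave a PSI within 0.1 of that of all reads in both clones for 224 of the 297 events, and for 118 of these 224 both alleles were outside the organ range. In the other 73 events the assigned reads were farther from all reads in at least 1 clone, and in 3 events they lay beyond the opposite end of the organ range on both alleles in both clones. The 93 nt exon of Map4, chosen after its values were seen, had a PSI of 0.506 and 0.471 in all reads but 0.971 and 0.962 in assigned reads. The Gm10499 exon was included on both alleles, at 0.968 and 0.927 on C57BL/6J and 0.913 and 0.973 on SPRET/EiJ in clones 1 and 2, and the Ncoa6 exon was at 0.159 or less on both. Assigned reads of the Ncoa6 exon together gave 0.123 and 0.153, lower than its 0.207 and 0.243 in all reads. The 270 nt exon of Fn1 differed between alleles in the same direction in both clones, at 0.795 and 0.918 on C57BL/6J and at 0.428 and 0.528 on SPRET/EiJ, all above the highest organ library. The Ect2 exon likewise stood at 0.826 and 0.899 on C57BL/6J and 0.452 and 0.371 on SPRET/EiJ, and the 9 nt exon of Kif3a at 0.368 and 0.735 on C57BL/6J and 0.752 and 0.958 on SPRET/EiJ. Among exons chosen after their values were seen, a 91 nt exon of Zfp820 was included almost only on C57BL/6J (0.841 and 0.895, against 0 and 0.0196), a 64 nt exon of the peroxisome gene Pex2 only on C57BL/6J (0.711 and 0.777, against 0 in both clones), and a 53 nt exon of the autophagy gene Atg7 mainly on SPRET/EiJ (0.957 and 0.906, against 0.0435 and 0.140). Allelic differences were not tested here.

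The last comparison asked where the clones differed. With 1 library per clone there is no test, and the differences are set beside those between the 2 replicates of each organ. Of 17154 genes with at least 1 TPM in a clone, 2593 (15.1%) differed at least 2-fold in TPM + 1, 1654 of them higher in clone 1 (9.64%) and 939 higher in clone 2 (5.47%). Between organ replicates, 87 genes in cortex (0.499%) to 381 genes in spleen (2.32%) differed as much. Of 7913 exon events with at least 20 reads in every library, 362 (4.57%) differed by at least 0.2 in PSI between clones, and 9 in kidney (0.114%) to 137 in liver (1.73%) between organ replicates. The ESC clones thus differed more than the replicates of each organ on both measures. When every library was thinned to 20 reads per event, 740 events differed between clones and 383 to 494 between organ replicates.

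**Figure D4:**
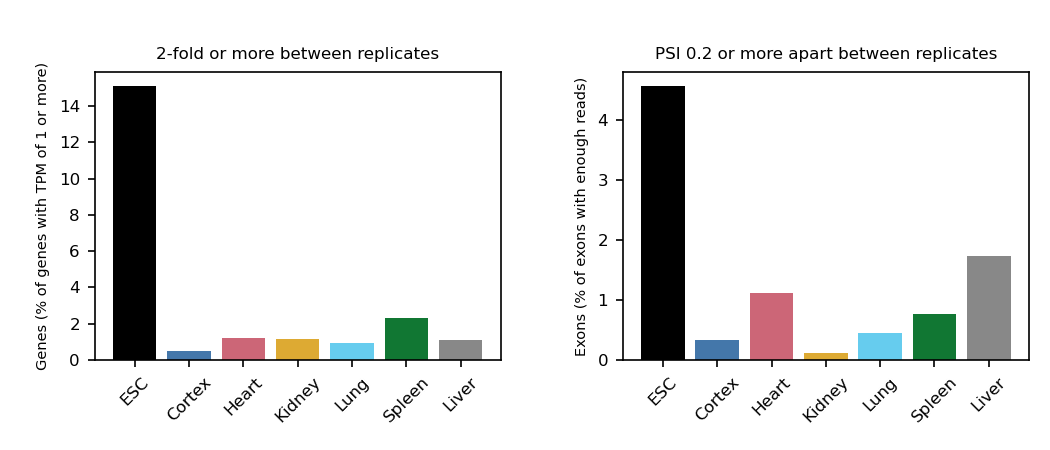
Share of genes whose TPM + 1 differed at least 2-fold (left, percent of genes at 1 TPM or more in a replicate) and of exon events whose PSI differed by at least 0.2 (right, percent of 7913 events) between the 2 replicates of each tissue, as bars from 0. ESC, with 15.1% and 4.57%, stand above every organ, of which spleen is highest for genes (2.32%) and liver for exons (1.73%).

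The largest ratios toward clone 1 were those of an imprinted RNA, of keratins and of genes whose organ level was highest in heart. The imprinted long noncoding RNA H19 stood at 528 TPM in clone 1 and 13.6 TPM in clone 2, and at 0.302 to 29.6 TPM in the organs. Mir675, which lies within an exon of H19 and shares its reads, was listed at 925 and 23.3 TPM. The keratin genes Krt8 (540 and 24.3 TPM) and Krt18 (653 and 37.4 TPM) of simple epithelia were higher in clone 1, and without clone 1 neither was called higher in ESC than in the organs. The striated muscle genes Cox6a2 (76.2 and 0.494 TPM), Flnc (61.6 and 1.17 TPM) and Acta1 (47.5 and 1.08 TPM) had their highest organ levels in heart, while the sum of the 4 heart markers was 10.2 TPM in clone 1 and 12.5 TPM in clone 2. Gm514 (93.2 and 3.36 TPM) and Plaur, the urokinase receptor (176 and 7.54 TPM), complete the 8 largest ratios in this direction.

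Genes higher in clone 2 included Wnt targets and a Nodal antagonist. Lefty2, a secreted Nodal antagonist and target, had 10.4 TPM in clone 1 and 156 TPM in clone 2, and at most 2.04 TPM in the organs. The mesoderm factor T (brachyury) had 0.602 and 21.0 TPM, so that its call against the organs was lost without clone 2. Of the 8 Wnt targets expressed in a clone, 5 were at least 2-fold higher in clone 2, among them Sp5 (0.470 and 14.9 TPM) and Axin2 (3.41 and 39.8 TPM), and none was 2-fold higher in clone 1. Among all 16539 tested genes expressed in a clone, 835 were 2-fold higher in clone 2 and 1523 in clone 1. Cd3g, another T cell receptor subunit, had 3.33 and 53.0 TPM, beside the level near 0 given above for Ptprc. The transcriptional coregulator Cited1 (7.48 and 77.2 TPM), Gm6792 (5.65 and 64.5 TPM) and 2010001K21Rik (1.53 and 23.9 TPM) complete this set.

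Gene lists differed between clones in either direction. The counts below stand beside 1523 genes at least 2-fold higher in clone 1 and 835 in clone 2, of all 16539 tested genes expressed in a clone. All 7 tested genes of the 2-cell stage and 10 of 14 germline genes were at least 2-fold higher in clone 1, among them the germ cell genes Mael (138 and 19.2 TPM), Taf7l (78.2 and 8.15 TPM) and Ddx4 (95.6 and 19.9 TPM). Of 24 replication and mitosis genes, 6 were 2-fold higher in clone 2 and none in clone 1, with a median log2 ratio of clone 1 to clone 2 of -0.65, beside 0.06 for all expressed genes tested. Among 25 pluripotency factors none was 2-fold higher in clone 1 and 3 were 2-fold higher in clone 2, namely Lin28a (10.3 and 37.0 TPM), L1td1 (72.7 and 193 TPM) and Tcl1 (24.5 and 59.8 TPM). The median log2 ratio of these factors was -0.17. Genes of primed or differentiating cells summed to 1252 TPM in clone 1 and 110 TPM in clone 2, mostly from Krt8 and Krt18, and Hand1, a factor of trophoblast and mesoderm, was at 15.4 and 1.04 TPM. Without clone 1, the call of Hand1 against the organs was lost.

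Among called exons, clone 1 was more often the clone nearer to the organs. It was nearer to the organ mean for 555 of 969 called events (57.3%), made up of 192 of 343 events with higher and 363 of 626 with lower inclusion, and for 140 of the 198 (70.7%) in which the clones differed by at least 0.2 in PSI. No share over all tested events is given here. Among called genes, clone 1 was nearer for 5344 of 9840 (54.3%). Where the clones differed at least 2-fold, it was nearer for 347 of 826 higher genes (42.0%) and 317 of 382 lower genes (83.0%). Exons and genes are not independent, and these shares compare 2 libraries.

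Exons that differed most between clones, among those with steady replicates in the organs, were chosen by the size of the difference. A 39 nt exon of Dos (chr10:80136705-80136743) had a PSI of 0.853 in clone 1 and 0.126 in clone 2, and 0.626 to 0.753 in the organs, between the clones. Pcnt, which encodes the centrosome protein pericentrin, included a 21 nt exon (chr10:76403624-76403644) at 0.772 and 0.133, both below the organ range of 0.942 to 0.997. Both alleles showed this, at 0.778 and 0.103 on C57BL/6J and 0.744 and 0.143 on SPRET/EiJ. A 63 nt exon of Apbb2, an adaptor of the amyloid precursor protein, was at 0.919 and 0.339, and a 176 nt exon of Wsb1, a subunit of a ubiquitin ligase, at 0.825 and 0.235. In the opposite direction, the kinase gene Tnik included an 87 nt exon at 0.271 and 0.855, and the splicing factor gene Luc7l2 a 101 nt exon at 0.445 and 0.982. The exons of the interferon-induced GTPase Igtp (250 nt, 1.00 and 0.421, with 27 reads in clone 2) and of the sodium-proton exchanger Slc9a5 (71 nt, 0.834 and 0.288) complete the 8.

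Differences between clones were also seen for whole chromosomes. Over genes with at least 5 TPM in a clone, the median log2 ratio of clone 1 to clone 2 was 0.35 on chromosome 3 (533 genes) and -0.38 on the X chromosome (488 genes), while the other autosomes lay between 0.03 and 0.17. Organ replicates had chromosome medians between -0.06 and 0.08 on chromosome 3 and between -0.05 and 0.02 on the X chromosome. On chromosome 3, the C57BL/6J allele held 57.4% of allelic junction reads in clone 1 and 49.9% in clone 2, against 45.1 to 51.7% in the organs. Chromosome 16 had the next highest ratio, 0.17, with C57BL/6J shares of 53.0 and 49.1% and organs at 46.2 to 51.2%. On the X chromosome both alleles were read in both clones, with C57BL/6J shares of 46.2 and 48.4%. The cause of these chromosome differences was not tested. Xist, the RNA that coats the inactive X chromosome, stood at 21.1 TPM in clone 1 and 2.35 TPM in clone 2, against 19.5 to 224 TPM in the organs. Tsix, its antisense partner, had 6.10 and 7.10 TPM and at most 1.82 TPM in the organs, and Rlim, an X-linked activator of Xist, had 38.9 and 70.3 TPM. Counting used strand, but fragments over several genes were shared between them.

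**Figure D5:**
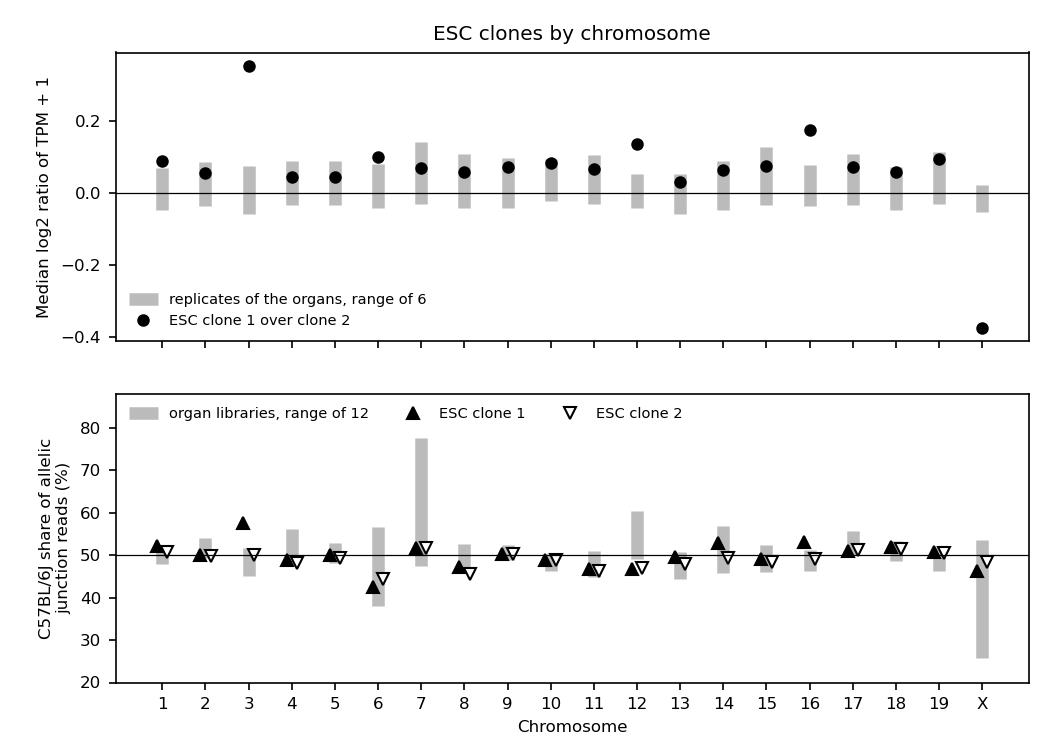
Top, median log2 ratio of TPM + 1 of ESC clone 1 to clone 2 over the genes of each chromosome, with the range of the same ratio between replicates of the 6 organs as grey bars; bottom, percent of allelic junction reads from C57BL/6J in each clone, with the range of the 12 organ libraries in grey. Chromosome 3 stands out in both panels (0.35 and 57.4% in clone 1), and the X chromosome lies lowest in the top panel (-0.38).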

How the data were processed

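Reads were aligned by the authors to C57BL/6J (mm10) and to a SPRET/EiJ genome (HISAT2 2.0.1) and went to the genome they matched better. The authors counted junction reads with rMATS on Ensembl 74 and made TPM with featureCounts, counting by strand and splitting fragments over several genes among them. The deposited expression values are in TPM; the deposited junction read counts are not normalized, and the effective lengths are a score written by rMATS. Comparison columns of the authors (p-values, inclusion differences) and 4 fibroblast TPM columns were not used.

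PSI was computed from junction counts divided by effective lengths, with replicates taken by list position. TPM was tested as log2(TPM + 1) with limma 3.58.1 (R 4.3.3), all 7 tissues in 1 fit, with a separate quality weight for ESC (0.103 per library against 1.46). Inclusion was fitted by tissue with a quasi-binomial logistic model, with 0.5 added to pooled counts and dispersions of at least 1, separate for ESC and organs and moderated by limma. Events needed 20 reads in both replicates. Chromosome positions of genes came from RefSeq (GRCm38), and 1955 tested genes without a chromosome were not named. Named genes and exons are the 12 per direction with the widest gap between the nearer clone and the nearest organ library, 1 exon per direction and gene, plus list members and the 8 largest clone differences. An exon of this set and a marker gene are not reported here. Members and lists were chosen with earlier results of these data known. In data simulated with 200 changed features, 66% of genes and 44% of events were recovered, each with 4.35% false calls. The simulation used the spread that the same models had fitted, so it cannot give the error rate of the reported calls. Nothing says that library numbers pair clones with animals. Allelic percentages carry 95% Wilson intervals, which cover counting error only. The software was Python 3.11.15, numpy 2.4.6, scipy 1.17.1, pandas 2.3.3 and matplotlib 3.10.9.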

Additional observations from a re-analysis of the deposited data

How the results depend on the processing

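Of 137 named genes and 38 named exons, 112 and 8 kept their call under every setting in which they could be computed. Rescaled TPM gave 4062 higher and 4854 lower genes, with 2838 set apart higher and 2345 set apart lower. Set apart lower genes were 2224 without liver and 3902 with lung and spleen as the only organs, an alternative chosen after seeing the data. With fewer organ libraries the range is narrower, so genes and events can lie outside it more easily by definition. Without 1 ESC clone, only the other clone has to lie outside, and the gene fit then had no separate weight for ESC. Leaving out 1 library gave 6115 to 6643 higher and 3526 to 4438 lower genes, and 4157 to 4840 and 1324 to 2036 set apart. With no filter, 32105 genes were tested. The named genes that reversed were Actl6b without cortex (0.0122), and, with lung and spleen only, Actl6b (0.00749), Klf2 (-0.51), Tcf7 (-0.81) and Cdkn2b (-0.26).

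Exon counts moved most. limma on log odds called 37 higher and 33 lower events (29 and 28 set apart), and 13 of the 38 named exons. All 6 organs with enough reads left 200 and 314 (157 set apart lower), a difference of 0.2 left 205 and 333 (163 set apart lower), and lung and spleen alone gave 358 lower, with 307 set apart higher. Leaving out 1 library gave 331 to 444 higher, 593 to 968 lower, 142 to 265 set apart higher and 274 to 696 set apart lower events. Events differing between clones by 0.2 were 227 with 50 reads and 740 after thinning, and 1098 differed by 0.1. The cause of these changes was not tested.

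With the replicate number as a block, limma gave 6232 higher and 3717 lower genes (4178 and 1374 set apart), and, on log odds, 12 higher and 5 lower events (7 and 5 set apart). Deviations of ESC and organ libraries of the same number had correlations of -0.07 to 0.06 over genes, so clones and animals share only a number. Between organs, same-numbered libraries correlated at -0.03 to 0.35, highest for heart with lung, and the 12 libraries, which came from 2 animals, were not blocked in the values of the report. Chosen after seeing the data, the restriction of allelic events to those in which assigned reads matched all reads left 118 of 156 with both alleles outside the organ range.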

Other observations

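Imprinted genes, which are read from 1 parental allele in most tissues, were read from both alleles in the ESC clones where the organs used 1. The C57BL/6J allele was the maternal one in this cross, and its share of allelic junction reads is given with the 95% Wilson interval for genes with at least 50 such reads per library. The maternally expressed RNA Meg3 had a C57BL/6J share of 34.9% (33.9 to 35.9) in clone 1 and 34.2% (32.2 to 36.2) in clone 2, and 98.9 to 100% in the 8 organ libraries with enough reads. Its neighbours at the same locus on chromosome 12, Rian (29.4 and 27.0%, organs 98.8 to 100%) and Mirg (33.6 and 36.9%, organs 99.5 to 99.9%), behaved alike. Among paternally expressed genes, Snrpn had 49.5% (48.4 to 50.5) and 50.7% (49.8 to 51.7) from C57BL/6J, against 0 to 0.105% in 6 organ libraries. Peg3, a zinc finger gene, had 74.5 and 72.9% against 0.354 to 0.374% in 2 libraries, Mest 43.4 and 51.3% against 0 to 4.23%, Plagl1 68.9 and 64.5% against 0 to 4.41% and Sgce 50.9 and 67.8% against 0 to 9.18%. Organ values lay near 0 or 100% for these 8 genes and both clones lay between them, without overlap.

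Other genes showed less of this contrast. Igf2r had 44.2 and 47.0% in the clones and 54.4 to 98.8% in the organs, Impact 45.4 and 42.7% against 12.9 to 41.4%, and Grb10, whose parental use differs between tissues, 37.1 and 29.5% against 3.92 to 100%. These shares were not tested against the organs and their cause was not tested. In expression, 10 of 24 imprinted genes tested were higher in ESC and 2 lower, beside 28.3% and 16.6% of all genes. The largest difference was in Peg10, a gene derived from a retrotransposon, at 538 and 224 TPM against at most 41.3 TPM in the organs.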
